A study of Mus musculus with 54 samples.

Results

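The genes described here encode the alpha-1 subunits of voltage-gated calcium channels. They are *Cacna1c* and *Cacna1d* (L-type), *Cacna1a* (P/Q-type), *Cacna1b* (N-type), *Cacna1e* (R-type) and *Cacna1g*, *Cacna1h* and *Cacna1i* (T-type). These 8 genes were chosen by symbol from the 30031 genes of the count table, and 8 of 8 were among the 18941 genes that passed the filter on low counts. RNA was measured in the suprachiasmatic nucleus (SCN), laser-captured from brains of male C3H/HeH mice of 10–12 weeks that were kept in a light/dark cycle. No treatment or genetic change separated the groups, which were defined by the time of collection: ZT2, ZT6, ZT10, ZT14, ZT18 and ZT22, where zeitgeber time (ZT) counts the hours after lights on. Each timepoint had 3 biological replicates, A, B and C, and each replicate was the pooled tissue of 5 mice, so differences between single animals were averaged before measurement.

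A voltage-gated calcium channel opens when the membrane depolarises, and its alpha-1 subunit forms the pore, carries the voltage sensors and sets the channel type. L-type channels open at strong depolarisation and inactivate slowly, which lets them feed calcium signals to the nucleus. P/Q-type, N-type and R-type channels supply calcium for transmitter release, and T-type channels open near the resting potential and pass brief currents that shape burst and rebound firing. The SCN is the master circadian clock of mammals. Its neurons fire faster by day than by night, and calcium entry is one of the routes that link membrane activity, light input and clock gene transcription.

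The line between the high-voltage and the low-voltage members can be read from the pore itself. Each alpha-1 subunit has 4 pore loops, and an acidic residue in each loop forms the filter that selects calcium. The stretches below are the coding sequence around that residue in the last loop, 30 bases each, read 5′ to 3′ on the coding strand from GENCODE M21 transcripts on GRCm38, with the codon of the filter residue in capitals. They are shown because this codon divides the family in the same way as the voltage at which the channels open.
*Cacna1c*, chr6:118614047-118614076, minus strand: tgtgccaccggaGAGgcctggcaggacatc
*Cacna1d*, chr14:30075941-30075970, minus strand: tgtgcaacagggGAAgcctggcaggagatc
*Cacna1a*, chr8:84611599-84611628, plus strand: agcgccacaggaGAAgcgtggcacaacatc
*Cacna1b*, chr2:24635210-24635239, minus strand: agtgccactgggGAGgcctggcatgagatc
*Cacna1e*, chr1:154425972-154426001, minus strand: agtgccacggggGAGgcttggcaggagatt
*Cacna1g*, chr11:94416412-94416441, minus strand: gtctccactggtGACaactggaatggtatt
*Cacna1h*, chr17:25377768-25377797, minus strand: gtgtccactgggGACaactggaatgggatc
*Cacna1i*, chr15:80388485-80388514, plus strand: gtctccacaggcGATaactggaatgggatt
The codon was one for glutamate in the L, P/Q, N and R types and one for aspartate in the 3 T-type genes, and each stretch lay within a single exon.

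Between 15412981 and 35820945 reads per replicate were counted on genes (median 25075231), and the 8 members had between 16 and 2820 reads in a replicate. The unit of level is CPM, a gene's share of its library's reads in parts per 1000000, adjusted by the trimmed mean of M-values (TMM). The libraries fell into 3 clusters of neighbouring timepoints: ZT6 and ZT10, ZT14 and ZT18, and ZT22 and ZT2. On the first 2 principal components of the 500 most variable genes, the median distance was 10.4 between replicates of a timepoint, 12.5 between the timepoints of a cluster and 61.1 between clusters. A difference between clusters cannot be told apart from any sequencing batch that followed them, so the comparisons within a cluster are given beside each result. The labelled tissue was checked against 12 markers of SCN neurons: they had reads in every replicate, and their summed level lay between 2492 and 7175 CPM. The summed markers of oligodendrocytes had 1267 to 6071 CPM, above the SCN neuron sum in every ZT14 and ZT18 replicate, and those of astrocytes 1640 to 5235. The telencephalic neuron sum had 157 to 1749 CPM, that of neighbouring hypothalamic neurons 44.1 to 293, that of microglia at most 268 and that of endothelial cells 40.6 to 102, and *Crh*, *Agrp*, *Hcrt* and *Pmch* of the hypothalamic list were at 0 in between 2 and 6 replicates.

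*Cacna1b* had the highest level per exonic kilobase and *Cacna1c* the lowest, with no clear step between most neighbours. To set genes beside each other, CPM was divided by the exonic length in kilobases, and no test was applied. *Cacna1b* stood at 4.23 ± 0.858 CPM per kb (SD over 18 replicates) and *Cacna1g* at 3.21 ± 2.18. *Cacna1d* followed at 2.41 ± 0.566, *Cacna1a* at 1.78 ± 1.45, *Cacna1e* at 1.78 ± 0.845 and *Cacna1i* at 1.27 ± 0.479. *Cacna1h* had 0.506 ± 0.489 CPM per kb and *Cacna1c* 0.476 ± 0.219. *Cacna1i* was the only member that exceeded the next in order, *Cacna1h*, by more than the larger of their SDs, and it did so in level in 17 of 18 replicates. *Cacna1b* was above *Cacna1g* in 13 of 18 replicates, *Cacna1d* above *Cacna1a* in 14 and *Cacna1e* above *Cacna1i* in 13. *Cacna1g* was above *Cacna1d* in 8 of 18, *Cacna1a* above *Cacna1e* in 7 and *Cacna1h* above *Cacna1c* in 9. These pairs held no single order over the 18 replicates, whose SDs and counts include the change over time. The timepoint mean of *Cacna1g* ran from 0.962 CPM per kb at ZT22 to 6.65 at ZT6. That of *Cacna1d* ran from 1.59 at ZT10 to 2.78 at ZT14, so the order of this pair changed with time. The order depends on the length used: per kilobase of coding sequence *Cacna1e*, whose annotated exons span 25.2 kb against 7.25 kb of coding sequence, came first at 6.19 CPM per kb, and *Cacna1h* came last at 0.698, below *Cacna1c* at 1.43.

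**Figure D1:**
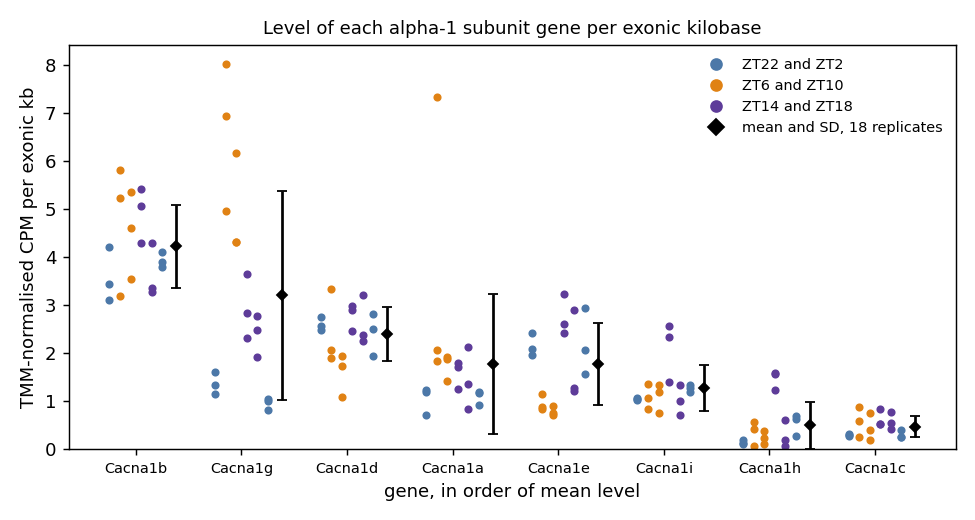
Level of each alpha-1 gene in TMM-normalised CPM per exonic kilobase, with 1 point per replicate, coloured by library cluster and ordered by time from left to right, and the mean and SD of 18 replicates as a black diamond. *Cacna1g* spans 0.813 to 8.03, while *Cacna1c* lies between 0.193 and 0.880.

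Over the 6 timepoints, 4 of the 8 members changed: *Cacna1a*, *Cacna1e*, *Cacna1g* and *Cacna1h* (edgeR quasi-likelihood F-test, Benjamini-Hochberg adjusted over all tested genes). Of all 18941 tested genes, 44.0% passed the same test. A gene was called cycling when it also passed JTK_CYCLE, a rank test for a 24 hr rhythm, and 2 of 8 members did, *Cacna1a* and *Cacna1g*, against 29.9% of all tested genes. *Cacna1e* and *Cacna1h* met the twin-peaking rule used here, which stands in for the study's module of co-expressed genes and asks for a change over time with the highest means at ZT14 and ZT22, and 2.15% of all tested genes met it. None of the 8 passed the edgeR test within a cluster: 0 in ZT14 against ZT18, where 0.570% of all genes did, 0 in ZT22 against ZT2 (0.0317% of all genes) and 0 in ZT6 against ZT10 (0.0475%).

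**Figure D2:**
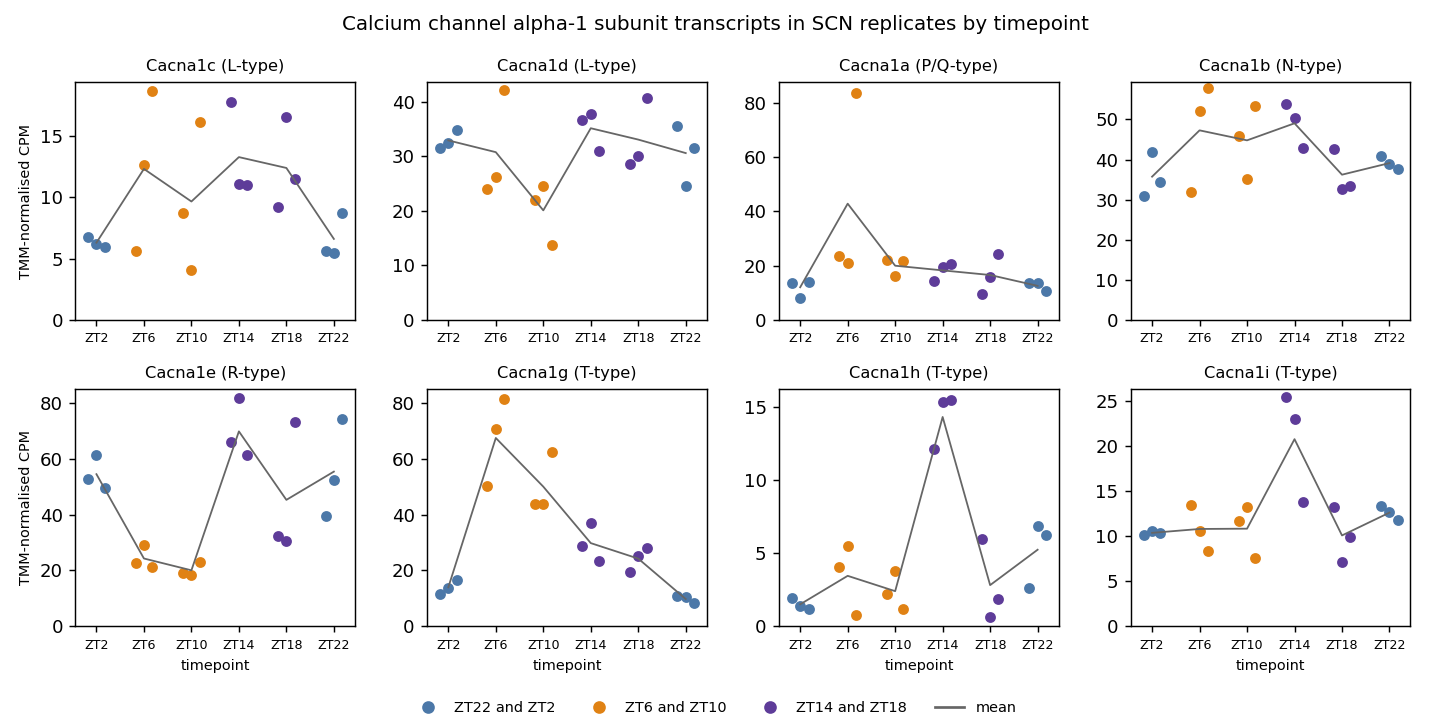
TMM-normalised CPM of the 8 alpha-1 genes (vertical axes from 0, each with its own range) against timepoint, with 1 point per replicate coloured by library cluster and a line through the means. *Cacna1g* runs from 67.4 CPM at ZT6 to 9.75 at ZT22, *Cacna1e* is lowest at ZT6 and ZT10, *Cacna1h* stands out at ZT14, and the high mean of *Cacna1a* at ZT6 comes from 1 replicate at 83.9.

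The L-type genes did not pass the test for a change over time. *Cacna1d* (chromosome 14, 30039939-30491455, minus strand of GRCm38), the L-type channel that opens at the less depolarised voltages and is tied to pacemaking, was the more abundant. Its replicates lay between 13.7 and 42.1 CPM, with the highest mean at ZT14, 35.1 ± 3.57 (SD, n = 3), and the lowest at ZT10, 20.1 ± 5.63 (adjusted p = 0.148, edgeR). The 3 values at ZT10 were 21.9, 24.5 and 13.7 CPM, and those at ZT6 were 24, 26.1 and 42.1. These timepoints overlapped, and the log2 difference of ZT6 from ZT10 was 0.61 ± 0.26 (SE, edgeR, adjusted p = 0.420). The exons of *Cacna1d* share 589 bases, 4.67% of its exonic length, with *Chdh* on the opposite strand, and the strand setting of the counting was not given in the sources used here.

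*Cacna1c* (chromosome 6, 118587240-119196418, minus strand), the L-type channel common to heart and brain, had 5.93 to 6.79 CPM at ZT2 and 5.44 to 8.74 at ZT22. Its values at ZT14 were 17.7, 11.1 and 11 CPM and at ZT18 9.18, 16.5 and 11.5, so the ZT14 and ZT18 replicates were all above those of ZT22 and ZT2. At ZT6 (5.64, 12.6 and 18.6) and ZT10 (8.74, 4.08 and 16.1) the replicates spread over most of the gene's whole range. The mean of ZT14 and ZT18 was higher than that of ZT22 and ZT2 by 0.99 ± 0.34 on the log2 scale (adjusted p = 0.0292, edgeR), a comparison between clusters that 33.5% of all tested genes passed. This call was lost without ZT14 replicate A, ZT18 replicate B, ZT2 replicate B or C, or ZT22 replicate A or B, with log2 differences between 0.86 and 0.98. It was also lost with the reads recovered from the second deposited table (adjusted p = 0.0643, edgeR) and with upper-quartile normalization (adjusted p = 0.0671). The test over all timepoints gave an adjusted p of 0.208. The summed level of 6 oligodendrocyte markers was also highest at ZT14 and ZT18, 4716 to 6071 CPM against 1267 to 4409 elsewhere, with no marker at 0, and its part in the *Cacna1c* values was not tested. As a share of the L-type level per exonic kilobase, *Cacna1c* made up 10.3% ± 1.10 at ZT2 and 11.5% ± 2.79 at ZT22, 18.2% ± 3.8 at ZT14, 18.4% ± 5.51 at ZT18, 18.5% ± 5.45 at ZT6 and 23.1% ± 16.4 at ZT10.

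*Cacna1a* (chromosome 8, 84388440-84640246, plus strand), the P/Q-type pore of most central synapses, passed the test over time, and 1 library decided it. The replicates had 23.7, 21 and 83.9 CPM at ZT6, 22.0, 16.3 and 21.6 at ZT10, and 14.4, 19.7 and 20.7 at ZT14. They had 9.66, 15.7 and 24.3 at ZT18, 13.4, 13.7 and 10.5 at ZT22 and 13.7, 8.22 and 14.1 at ZT2. Apart from 83.9 in ZT6 replicate C, the values lay between 8.22 and 24.3, and those of ZT6 and ZT10 were all above those of ZT22 and ZT2. The adjusted p over time was 0.0126, and without ZT6 replicate C it was 0.145 (edgeR). In the comparison between clusters, ZT6 and ZT10 were higher than ZT22 and ZT2 by 1.25 ± 0.32 on the log2 scale (adjusted p = 0.00349), a comparison that 44.4% of all tested genes passed, and by 0.78 without that replicate. JTK_CYCLE placed its best peak at ZT10 (exact p = 0.0319 after the factor for 6 lags). It was called cycling in 11 of 18 fits that left out 1 replicate, and not without ZT6 replicate C, ZT18 replicate B, ZT2 replicate A or C, or any 1 of the ZT22 replicates. *Cacna1a* shares 435 bases, 3.81% of its exonic length, with the antisense gene *Gm16183*. Without strand, reads on those shared bases cannot be assigned to either gene.

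*Cacna1b* (chromosome 2, 24603887-24763152, minus strand), the N-type channel of presynaptic terminals, had all 18 replicates between 30.9 and 57.9 CPM. The timepoint means lay between 35.7 ± 5.65 at ZT2 and 49.0 ± 5.65 at ZT14, and the test over time gave an adjusted p of 0.316. At ZT14 the replicates had 53.9, 50.5 and 42.8 CPM and at ZT18 42.7, 32.6 and 33.4. These did not overlap, but the log2 difference of 0.44 ± 0.23 did not pass (adjusted p = 0.421).

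*Cacna1e* (chromosome 1, 154390731-154884501, minus strand), the R-type channel of dendrites and terminals, fell in the middle of the day. The replicates had 22.6, 29 and 21.2 CPM at ZT6 and 19.1, 18.2 and 22.8 at ZT10. At ZT2 they had 52.7, 61.2 and 49.4, at ZT14 66.2, 81.9 and 61.4, at ZT18 32.2, 30.5 and 73.2 and at ZT22 39.6, 52.3 and 74.2. Every ZT6 and ZT10 replicate was below every replicate of the other timepoints, and ZT18 replicate C stood apart from the 2 others of its timepoint. The adjusted p over time was 0.000480. ZT6 and ZT10 were lower than ZT22 and ZT2 by a log2 difference of -1.32 ± 0.21 (edgeR, adjusted p = 6.46e-05), a comparison that 44.4% of all tested genes passed. They were lower than ZT14 and ZT18 by -1.35 ± 0.21 (adjusted p = 0.000130), a comparison that 32.4% of all tested genes passed.

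Within the clusters *Cacna1e* moved less. The log2 difference was 0.63 ± 0.30 for ZT14 against ZT18 (adjusted p = 0.366) and 1.16 without ZT18 replicate C, where it did not pass either, and 0.02 ± 0.30 for ZT22 against ZT2. *Cacna1e* met the twin-peaking rule with means of 69.8 ± 10.7 CPM at ZT14 and 55.4 ± 17.5 at ZT22, but ZT2, at 54.5 ± 6.09, was next to ZT22. It did not meet the rule without ZT2 replicate C, without ZT22 replicate C, or with the size factors or the test of DESeq2. It has the longest exons of the family. Among genes averaging 10 or more counts, the 1479 whose exons were at least as long as the shortest member's, 9763 bases, had their median centred log2 CPM above 0 at ZT2 (0.22), ZT14 (0.20) and ZT22 (0.16) and below 0 at ZT6 (-0.11), ZT10 (-0.24) and ZT18 (-0.12). The medians over all genes of that abundance were 0.04 at ZT2, 0.13 at ZT14, 0.08 at ZT22, -0.10 at ZT6, 0.02 at ZT10 and 0.01 at ZT18, so the ZT6 value of the long genes was close to that of all genes. With each library's trend on length removed, the time test for *Cacna1e* still passed (adjusted p = 0.00351), and the log2 difference of ZT14 from ZT18 was 0.22. The astrocyte markers changed over time in 6 of 6 genes, beside 44.0% of all tested genes. These markers were also lowest at ZT6 and ZT10 in their sum, 1640 to 2304 CPM against 2703 to 5235 at the other timepoints, with no marker at 0. Their part in the fall of *Cacna1e* was not tested. In pooled tissue, fewer cells of a type and less RNA per cell cannot be told apart.

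*Cacna1g* (chromosome 11, 94408391-94474198, minus strand), a T-type channel of neurons that fire in bursts, showed the clearest daily course of the family. The replicates had 50.4, 70.5 and 81.4 CPM at ZT6 and 43.7, 43.7 and 62.6 at ZT10. They had 28.8, 37.0 and 23.5 at ZT14, 19.4, 25.1 and 28.1 at ZT18, 10.7, 10.3 and 8.24 at ZT22 and 11.7, 13.7 and 16.5 at ZT2. The 3 clusters did not overlap: ZT6 and ZT10 were highest, ZT14 and ZT18 intermediate, and ZT22 and ZT2 lowest. From ZT22 to ZT6 the means differed 6.91-fold, and the adjusted p over time was 7.37e-07 (edgeR), with an exact JTK_CYCLE p of 0.000147 and the best peak at ZT10.

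The differences of *Cacna1g* between clusters all passed, in comparisons that 44.4%, 32.4% and 33.5% of all tested genes passed. In the same order, the log2 values were 2.31 ± 0.18 for ZT6 and ZT10 over ZT22 and ZT2 (edgeR, adjusted p = 1.66e-08), 1.11 ± 0.18 over ZT14 and ZT18 (adjusted p = 0.000125) and 1.20 ± 0.18 for ZT14 and ZT18 over ZT22 and ZT2 (adjusted p = 4.23e-05). Within the clusters none passed: 0.43 ± 0.25 for ZT6 against ZT10 (adjusted p = 0.533), 0.30 ± 0.25 for ZT14 against ZT18 (adjusted p = 0.676) and -0.52 ± 0.25 for ZT22 against ZT2 (adjusted p = 1). It passed over time and was called cycling in 18 of 18 fits that left out 1 replicate. The 12 markers of SCN neurons, of which 10 changed over time (44.0% of all tested genes did), were also highest at ZT6 and ZT10 in their sum. It was 5589 to 7175 CPM there, against 2492 to 5700 elsewhere. The paper names *Prok2* and *Rorb* of this list among its cycling genes, so the sum does not measure cell content alone. The part of these markers in the level of *Cacna1g* was not tested.

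*Cacna1h* (chromosome 17, 25374285-25433783, minus strand), a T-type channel also known from sensory neurons, was the least expressed T-type gene and peaked at ZT14. The replicates had 12.1, 15.3 and 15.5 CPM at ZT14, from 433, 528 and 563 reads. They had 5.98, 0.610 and 1.83 at ZT18, 2.65, 6.83 and 6.20 at ZT22 and 1.92, 1.38 and 1.19 at ZT2. At ZT6 they had 4.08, 5.49 and 0.757 and at ZT10 2.23, 3.78 and 1.18. All ZT14 replicates were above every other replicate, of which the highest was at 6.83, and all ZT22 replicates were above those of ZT2. The counts outside ZT14 were low, down to 16 reads in ZT6 replicate C, and 158 bases of its exons (1.62%) are shared with *Tpsg1* on the opposite strand.

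The adjusted p of *Cacna1h* over time was 0.0110 (edgeR), and without the ZT14 libraries it was 0.444, so the call rested on ZT14. ZT14 exceeded ZT18 by 2.34 ± 0.76 on the log2 scale (adjusted p = 0.164), and by 3.57 without ZT18 replicate A. ZT22 exceeded ZT2 by 1.80 ± 0.76 (adjusted p = 1). ZT14 with ZT22 exceeded ZT18 with ZT2, a contrast in which differences between clusters cancel, by 2.07 ± 0.54 (adjusted p = 0.107), and 0.148% of all tested genes passed that contrast. DESeq2 gave adjusted p of 0.0292 for ZT14 against ZT18 and 0.00536 for the combined contrast.

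A list of 8 markers of telencephalic excitatory neurons, cells that lie outside the SCN, was also highest at ZT14. Their sum was 1138 to 1749 CPM at ZT14, against 157 to 820 at the other timepoints, and 5 of 8 changed over time (44.0% of all tested genes did). *Camk2a* alone had 868, 896 and 1334 CPM at ZT14, where the sums were 1195, 1138 and 1749, so most of the sum there came from this gene. The paper places *Camk2a* among twin-peaking genes of the pathway by which light shifts the clock. The log2 difference of the 8 markers was above 0 in 8 of 8 for ZT14 against ZT18, where 1 passed, and in 7 of 8 for ZT22 against ZT2, where 0 passed (edgeR). The only one of them at 0 anywhere was *Neurod2*, in 1 replicate. The SCN neuron markers summed to 2492 to 3486 CPM at ZT14, and their lowest sum was there. By gene, 7 of the 12 SCN markers were higher at ZT14 than at ZT18 (median log2 difference 0.04). At ZT22, 1 of 12 was higher than at ZT2 (median -0.28). The part of telencephalic cells in the ZT14 values of *Cacna1h* and *Cacna1i* was not tested.

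**Figure D3:**
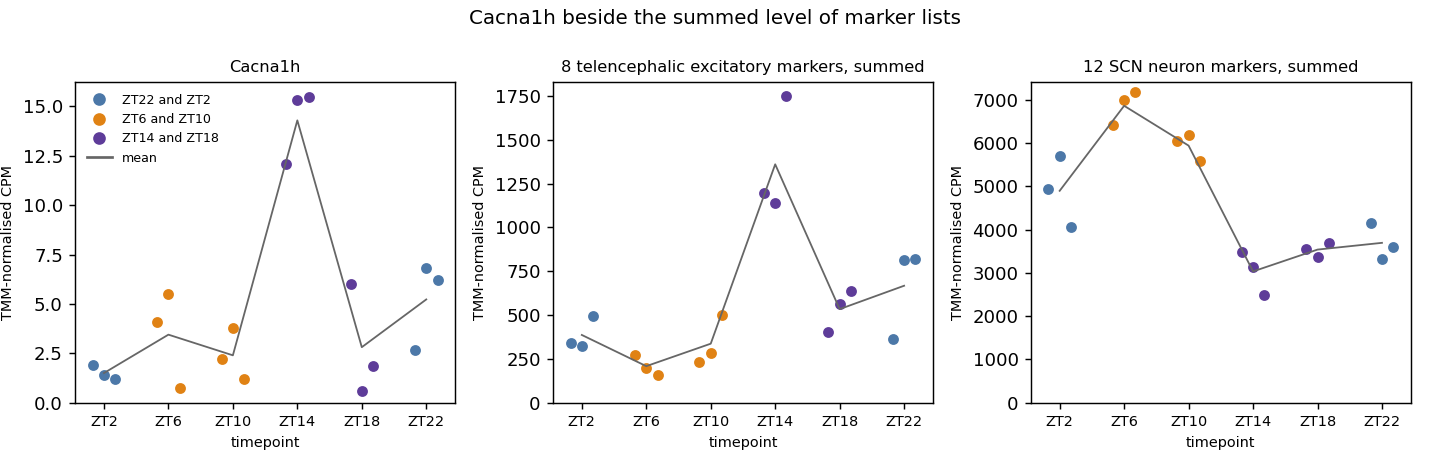
TMM-normalised CPM of *Cacna1h*, of 8 telencephalic excitatory markers summed and of 12 SCN neuron markers summed (vertical axes from 0), against timepoint, with 1 point per replicate coloured by library cluster and a line through the means. *Cacna1h* and the summed telencephalic markers are both highest at ZT14, where the SCN marker sum reaches its lowest value, 2492. Of the 12 single SCN markers, 7 were higher at ZT14 than at ZT18.

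*Cacna1i* (chromosome 15, 80287238-80398279, plus strand), a T-type channel of slower kinetics, fell just short of the threshold over time (adjusted p = 0.0520). The replicates had 25.4, 23.1 and 13.8 CPM at ZT14, 13.2, 7.10 and 9.89 at ZT18, 13.3, 12.7 and 11.8 at ZT22 and 10.2, 10.6 and 10.3 at ZT2. At ZT6 they had 13.4, 10.6 and 8.33 and at ZT10 11.7, 13.2 and 7.55. The ZT14 replicates were above every other replicate, the highest of which was at 13.4. The log2 difference of ZT14 from ZT18 was 1.04 ± 0.32 (edgeR, adjusted p = 0.144; DESeq2, adjusted p = 0.0286), and ZT22 differed from ZT2 by 0.28 ± 0.32. The call moved with single libraries and passed in 5 of 18 fits that left out 1, from an adjusted p of 0.0296 without ZT14 replicate C to 0.295 without ZT14 replicate A. It also passed with DESeq2 (adjusted p = 0.0164), where 56.5% of genes given an adjusted p did, and by edgeR among genes with 10 or more counts in every replicate (adjusted p = 0.0333).

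The make-up of the T-type level per exonic kilobase followed the course of *Cacna1g*. *Cacna1g* made up 81.4% ± 8.05 of it at ZT6 and 78% ± 8.38 at ZT10, 65.2% ± 13.9 at ZT18, 53.1% ± 4.85 at ZT2, 44.9% ± 3.01 at ZT14 and 34.7% ± 4.37 at ZT22 (SD, n = 3). *Cacna1i* held a larger share than *Cacna1g* at ZT22 only, 46.2% ± 3.91, where its lowest replicate, 42.9%, was above the highest of *Cacna1g*, 39.4%. A share rises when another gene falls: from ZT6 to ZT22 the mean of *Cacna1g* went from 67.4 to 9.75 CPM, and that of *Cacna1i* from 10.8 to 12.6. *Cacna1h* reached 23.1% ± 6.01 at ZT14 and 19.1% ± 7.82 at ZT22 and stayed at 4.04% to 7.49% on average elsewhere. Together the T-type genes were 40.6% ± 6.64 of the level of all 8 genes at ZT6 and 40.9% ± 2.92 at ZT10, against 21% ± 1.22 at ZT2 and 21.8% ± 2.20 at ZT22, and no replicate of the first pair of timepoints was as low as any of the second. These shares carry the same differences between clusters as the genes they are made from.

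**Figure D4:**
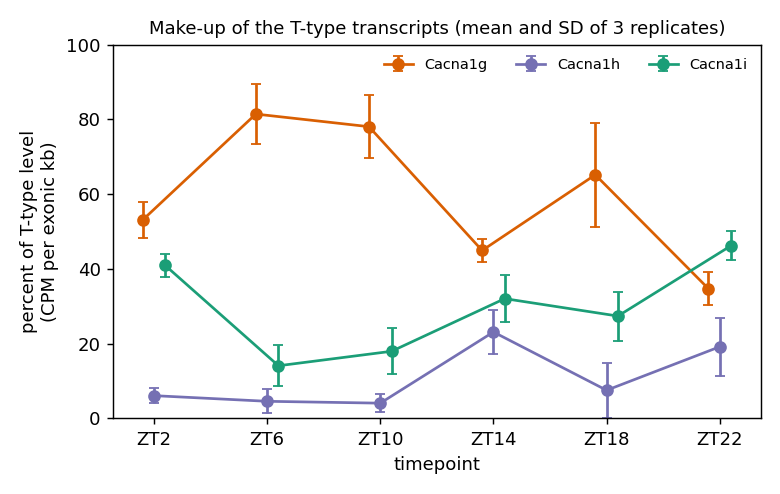
Share of *Cacna1g*, *Cacna1h* and *Cacna1i* in their summed CPM per exonic kilobase (vertical axis, percent, 0 to 100) at each timepoint, as the mean of 3 replicates with SD bars. *Cacna1g* holds 81.4% at ZT6 and 34.7% at ZT22, where *Cacna1i* holds 46.2%.

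Across the family, comparisons within clusters gave few differences beyond the spread. At an unadjusted p under 0.05, 3 members differed between ZT14 and ZT18 (*Cacna1e*, *Cacna1h* and *Cacna1i*), 1 between ZT22 and ZT2 (*Cacna1h*) and 2 between ZT6 and ZT10 (*Cacna1a* and *Cacna1d*), where 13.5%, 3.59% and 10.8% of all tested genes did. The last difference of *Cacna1a* was 1.10 ± 0.44 on the log2 scale and 0.16 without ZT6 replicate C. DESeq2 called 2, 0 and 0 members in the same comparisons, beside 5.16%, 0.447% and 1.40% of the genes it gave an adjusted p, and gave none for 2 members in ZT22 against ZT2. In the combined contrast of ZT14 and ZT22 against ZT18 and ZT2 it called 1, *Cacna1h* (3.32% of genes), where edgeR called 0 and 2 had an unadjusted p under 0.05 (10.6% of all tested genes). The median log2 difference of the 8 members was 0.37 for ZT14 against ZT18, 0.07 for ZT22 against ZT2 and 0.39 for ZT6 against ZT10. The medians over all tested genes were 0.01, 0.01 and -0.03. All 8 members have exons of 9763 bases or more. Among genes averaging 10 or more counts, the 1479 that long had a median centred log2 CPM of 0.20 at ZT14 and -0.12 at ZT18. It was 0.16 at ZT22 and 0.22 at ZT2, and -0.11 at ZT6 and -0.24 at ZT10. The part of exon length in the members' medians was not tested. Between clusters, 4 of the 8 passed at least 1 comparison by edgeR. The share of all genes that did so was not computed, but it cannot be below 44.4%, the largest share in a single comparison. *Cacna1a* and *Cacna1g* were higher and *Cacna1e* lower at ZT6 and ZT10 than at ZT22 and ZT2, where 44.4% of all tested genes passed. *Cacna1g* was higher and *Cacna1e* lower at ZT6 and ZT10 than at ZT14 and ZT18 (32.4% of all tested genes). *Cacna1c* and *Cacna1g* were higher at ZT14 and ZT18 than at ZT22 and ZT2 (33.5%).

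**Figure D5:**
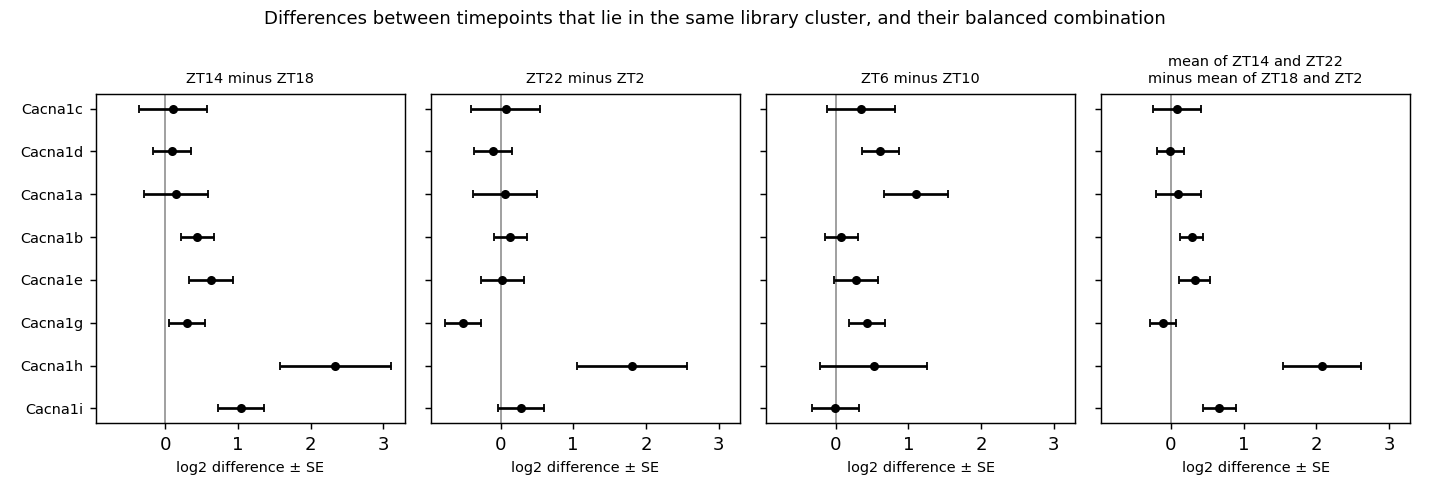
Log2 difference and SE (horizontal axes) for the 8 alpha-1 genes in the 3 comparisons within clusters of libraries and in the contrast that combines 2 of them. *Cacna1h* has the largest values, 2.34 for ZT14 against ZT18 and 1.80 for ZT22 against ZT2, with the widest SE of 0.76 in both.

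For each member that changed over time, the tested genes of nearest course were found by the root mean square difference of centred log2 CPM over the 18 replicates, among 15626 genes averaging 10 or more counts. *Cacna1g* was nearest to *Ccdc38* (0.31) and *Nrxn2* (0.33), a presynaptic adhesion gene, beside a median of 1.25 over all genes compared. *Cacna1e* was nearest to *Hivep2* (0.30), a zinc finger transcription factor gene, and *Scamp1* (0.30), a secretory vesicle membrane gene, and *Cacna1a* to the RNA-binding protein genes *Sfpq* (0.25) and *Hnrnpl* (0.31). The medians over all genes were 1.04 for *Cacna1e* and 1.05 for *Cacna1a*. For *Cacna1h*, *Smpd3*, a sphingomyelinase gene, lay at 0.81 and *Tnks1bp1* at 0.90, beside a median of 1.51, and *Cacna1h* itself varied more around its mean (1.35) than *Cacna1g* did (0.99).

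The accessory subunits that join the alpha-1 pore in the channel changed over time in 13 of 18 genes, beside 44.0% of all tested genes. Of the 18, 10 were called cycling (29.9% of all tested genes) and 2 met the twin-peaking rule (2.15%). The list also holds the muscle and retinal alpha-1 genes, *Cacna1s* and *Cacna1f*, of which 0 of 2 passed. By family, 4 of 4 beta subunit genes passed, which encode the cytoplasmic subunits that bring the pore to the membrane. So did 4 of 4 alpha-2-delta genes, which encode extracellular subunits, and 5 of 8 gamma genes, several of which encode AMPA receptor partners. Within the clusters 0 of 18 passed by edgeR in ZT14 against ZT18, ZT22 against ZT2 or ZT6 against ZT10. Of all tested genes, 0.570%, 0.0317% and 0.0475% passed these comparisons, in that order. An unadjusted p under 0.05 was found for 6, 0 and 3 of the 18 (13.5%, 3.59% and 10.8% of all tested genes). DESeq2 called 1, 0 and 0 of the 16, 12 and 18 genes it gave an adjusted p (5.16%, 0.447% and 1.40% of all such genes). The beta genes split: *Cacnb1* and *Cacnb3* were lowest at ZT2, at 12.1 ± 6.36 and 18.8 ± 2.63 CPM, and highest at ZT14, at 53.7 ± 12.6 and 73.9 ± 5.80, whereas *Cacnb4* was lowest at ZT6, 51.0 ± 3.19, and highest at ZT22, 136 ± 36.9 CPM. *Cacnb2* was highest at ZT6, 34.0 ± 8.66, and lowest at ZT18, 10.3 ± 6.70. The beta genes are named as a complete family, a choice made after their values were seen.

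By the naming rule, the accessory genes of widest range were *Cacng6*, *Cacng8* and *Cacng7*, and 2 of them had few reads. *Cacng6* had 51, 37 and 113 reads at ZT14 and 0 in all 6 replicates of ZT6 and ZT10. *Cacng8* had 9, 36 and 32 reads at ZT22 and 0 in the 3 replicates of ZT10. *Cacng7* had 6.35 ± 0.681 CPM at ZT14 and 0.0783 ± 0.0302 at ZT10, from 2, 1 and 2 reads. *Cacng5*, a gamma gene, was the most abundant accessory gene that did not pass, with a mean of 72.5 CPM (adjusted p = 0.449).

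Of 25 genes for proteins that bind or regulate these channels, 15 changed over time, beside 44.0% of all tested genes. Among these 25, 12 were called cycling (29.9% of all tested genes) and 4 met the twin-peaking rule (2.15%). Within a cluster 0 of 25 passed by edgeR, in comparisons that 0.570%, 0.0317% and 0.0475% of all genes passed in the same order, with 9, 2 and 3 at an unadjusted p under 0.05 (13.5%, 3.59% and 10.8% of all genes). DESeq2 called 3, 0 and 1 of the 24, 17 and 25 genes it gave an adjusted p (5.16%, 0.447% and 1.40% of all such genes). *Rem2*, a small GTPase that holds down channel current, had 13.9, 17 and 5.91 CPM at ZT14 and 0.509, 0.172 and 0.617 at ZT2 (adjusted p = 0.0113). *Cabp1*, a calmodulin relative that slows L-type inactivation, had 9.01, 4.01 and 10.1 CPM at ZT14 and 0.113, 0.215 and 0.617 at ZT2 (adjusted p = 0.000153). *Stac2*, an adaptor of L-type channels, had 28.7, 15.1 and 36.8 at ZT14 and 2.17, 1.14 and 2.18 at ZT6 (adjusted p = 0.000150). That the highest and lowest timepoints do not overlap in these 3 genes follows from the naming rule. *Gnb1*, a G protein beta subunit gene, was the most abundant gene that did not pass, at a mean of 842 CPM (adjusted p = 0.752).

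Of 33 genes that move, buffer or read calcium inside the cell, 22 changed over time (44.0% of all tested genes did), 7 were called cycling (29.9% of all genes) and 10 met the twin-peaking rule (2.15%). This list had calls within a cluster by edgeR: 6 of 33 were higher at ZT14 than at ZT18 and 0 lower, beside 0.570% of all genes, and 4 were higher and 0 lower in the combined contrast of ZT14 and ZT22 against ZT18 and ZT2, beside 0.148%. These calls hung on single libraries, and so did the calls over all genes. The 6 fell to 0 without ZT14 replicate A or B or ZT18 replicate B or C, to 1 without ZT14 replicate C, to 4 without ZT18 replicate A, and to 1, *Atp2b1*, with the length trend removed. Over all genes, the 108 calls of that comparison fell to between 0 and 2 without any 1 ZT14 replicate or ZT18 replicate B or C. They were 86 without ZT18 replicate A and 8 with the length trend removed. The 4 fell to 0 without ZT14 replicate A or B, ZT18 replicate B, any 1 of the ZT2 replicates or ZT22 replicate B or C, and rose to 9 without ZT22 replicate A. In the fits where the 4 fell to 0, between 0 and 2 of all genes passed the combined contrast, against 28 in the fit of all libraries. Without ZT22 replicate A, 124 of all genes passed it. Of the other single libraries, leaving out ZT14 replicate C or ZT18 replicate A left 1 of the 4 calls, ZT10 replicate B or ZT6 replicate B left 2, and the count was 6 without ZT6 replicate C. The 6 were *Itpr1*, *Ryr2*, the plasma membrane calcium pump genes *Atp2b1*, *Atp2b2* and *Atp2b4*, and the exchanger gene *Slc24a2*, named after their values were seen. The median log2 difference of the list in the combined contrast was 0.58, against 0.19 for the 8 alpha-1 genes and 0.01 for all tested genes. *Itpr1*, the neuronal inositol trisphosphate receptor gene, had 289, 268 and 226 CPM at ZT14 and 36.4, 35.3 and 27.5 at ZT6, and ZT14 passed against ZT18 in the fit of all libraries (edgeR, adjusted p = 0.0242). *Camk2a*, the calcium/calmodulin kinase gene of forebrain excitatory neurons, had 868, 896 and 1334 CPM at ZT14 and 184, 123 and 110 at ZT6. *Camk4* had 240, 227 and 119 CPM at ZT14 and 57.4, 13.6 and 27.2 at ZT6. *Calb2*, the calretinin gene, was the most abundant that did not pass, at a mean of 338 CPM (adjusted p = 0.709). The telencephalic marker list was highest at ZT14 as given above, and its part in these values was not tested. *Camk2a* is in both lists. With the ZT14 libraries left out, 20 of 32 tested genes of this list passed over time, 12 of 17 accessory genes and 12 of 25 modulators, beside 38.1% of all genes tested, and each had also passed with ZT14 included.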

How the data were processed

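The authors amplified polyA RNA from laser-captured tissue, sequenced 18 libraries on 3 lanes each (54 lane samples), aligned the reads to mm10 (GSNAP) and counted them on Ensembl genes (HTSeq 0.5.4p1). The deposited read counts were whole numbers without normalization, with lanes combined. A second deposited table held normalized signal, counts divided by a size factor per column. Whole reads were recovered from 100% of its values (tolerance 0.05 of a read) and used as an alternative. The deposited tables differ for ZT6 and ZT10: there 36.8% to 47.1% of shared genes had the same reads in both, against 94.7% to 96.3% at the other timepoints, and the reason is not given in the sources used here. No sample column was left unused (0).

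Genes detected by 1 or more reads in over 6 replicates were tested with edgeR 4.0.16 (R 4.3.3): TMM normalization, 1 quasi-likelihood fit to 18 replicates, Benjamini-Hochberg adjustment over 18941 genes and a threshold of 0.05. The fit pooled the spread over timepoints, and ± SE values come from it. JTK_CYCLE was rewritten in Python 3.11.15 (period 24 hr, 6 lags, exact null, two-sided, Bonferroni over lags). Both were tested on simulated data. DESeq2 1.42.0 and limma 3.58.1 (cosinor) were alternatives. Symbols, lengths and positions came from GENCODE M21 on GRCm38, which matched 97.4% of identifiers. Counts are per gene and do not separate splice variants.

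Members, gene lists and tests were chosen with earlier results of these data known. By rule, each list names up to 3 genes of widest range among those that passed with highest and lowest timepoints not overlapping, and the most abundant gene that did not pass. Each changing member has its 2 genes of nearest course named. Leaving out ZT14 was added after seeing the data.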

Additional observations from a re-analysis of the deposited data

How the results depend on the processing

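The count of members that changed over time was 4, and between 4 and 5 when each replicate was left out in turn (18 fits). It was 3 with the ZT14 libraries left out, without *Cacna1h*. It was 5, with *Cacna1i*, by DESeq2, on genes with 10 or more counts throughout, and with a replicate block for the letters A, B and C (adjusted p = 0.0472), where *Cacna1i* also met the twin-peaking rule. The letters did not pair the samples: the correlation of same-letter deviations between timepoints ran from -0.19 to 0.10, above 0.1 in 1 of 45 pairs, and the replicate block changed no other call of a member by time, cycling or within clusters. The cycling count of 2 fell to 1, *Cacna1g*, with DESeq2, with its size factors, with upper-quartile normalization, with no filter, with recovered reads and with Benjamini-Hochberg adjustment of the JTK_CYCLE p. It stayed 2 with cosinor regression and with ZT14 left out, then *Cacna1e* and *Cacna1g*, and ran between 1 and 2 over the fits without 1 replicate. Within clusters edgeR called 0 members in every fit without 1 replicate. DESeq2 called 2 in ZT14 against ZT18, and 1 in the combined contrast, as did edgeR on genes with 10 or more counts throughout. The twin-peaking count of 2 was 1 with DESeq2's size factors and between 1 and 3 without single replicates. The order of levels held for 1 of 8 members with coding length in place of exonic length, and for between 6 and 8 without single replicates. Removing the length trend brought *Cacna1b* (adjusted p = 0.0393) and *Cacna1c* (0.0383) past the threshold over time, and made *Cacna1b* cycling in place of *Cacna1a*. With reads recovered from the second table, which differs most at ZT6 and ZT10, the same 4 members passed over time, and *Cacna1b* passed between ZT6 with ZT10 and ZT22 with ZT2 (adjusted p = 0.0271). The causes were not tested. *Cacna1h* had 16 to 563 reads in a replicate.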
